A study of Mus musculus with 57 samples.

Results

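The levels of 10 genes of the cyclic AMP (cAMP) pathway were followed in mouse microglia: the adenylyl cyclase genes Adcy3, Adcy7, Adcy8 and Adcy9, the phosphodiesterase genes Pde3b, Pde4b and Pde4d, Prkar2b, Creb1 and Crem. They were taken by symbol, and all 10 were found among the 50565 genes of one deposited count table and the 53278 genes of the other. All RNA came from CD11b-positive cells isolated from adult mouse brain, which the labels call microglia, of wild-type animals (WT) and littermates lacking the nucleotide receptor P2RY12 (KO). The sex experiment held 4 WT and 5 KO males and 4 WT and 5 KO females, with no treatment named in their labels. In the LPS experiment the libraries carry the treatment label ns, which is not defined and is used as written, or LPS. LPS stands for lipopolysaccharide, an outer membrane molecule of Gram-negative bacteria that sets off innate immune responses, and was injected into the peritoneum at 1 mg/kg. That experiment has 8 WT ns, 9 WT LPS, 8 KO ns and 8 KO LPS libraries, with no sex or exact age in the labels and no statement on whether each library is a separate animal. The p-values there measure the spread between these libraries, which may be partly technical.

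Adenylyl cyclases make the second messenger cAMP from ATP. Receptors coupled to the G protein Gs raise their activity, and receptors coupled to Gi, P2RY12 among them, lower it. Phosphodiesterases hydrolyse cAMP, protein kinase A (PKA) is held inactive by regulatory subunits until cAMP binds them, and PKA phosphorylates the transcription factor CREB, which binds the cAMP response element of target promoters. In macrophages and microglia cAMP is known to damp the production of inflammatory cytokines.

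Promoter sequences of 7 of the 10 genes, 250 bases before to 50 bases after an annotated start, were taken from RefSeq (GRCm38.p6). No entry was matched for Adcy8, Pde3b and Crem. The sequences are shown for the gene that rose with LPS, Pde4b, at the starts that hold a motif match, and for Adcy9 and Pde4d, which were lower in LPS libraries. Capitals mark matches to the core of a cAMP response element (TGACG, or CGTCA on the other strand, a part of the full element TGACGTCA) or to the NF-kappaB consensus, the element bound by the inflammatory transcription factor of that name.
Pde4b, chr4:102421305-102421604, plus strand: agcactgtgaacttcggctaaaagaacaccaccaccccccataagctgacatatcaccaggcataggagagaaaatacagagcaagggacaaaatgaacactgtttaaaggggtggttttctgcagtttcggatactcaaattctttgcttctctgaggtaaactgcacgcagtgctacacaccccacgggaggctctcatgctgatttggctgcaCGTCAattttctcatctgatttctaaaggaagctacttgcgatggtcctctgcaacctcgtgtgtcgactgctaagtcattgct
Pde4b, chr4:102569810-102570109, plus strand: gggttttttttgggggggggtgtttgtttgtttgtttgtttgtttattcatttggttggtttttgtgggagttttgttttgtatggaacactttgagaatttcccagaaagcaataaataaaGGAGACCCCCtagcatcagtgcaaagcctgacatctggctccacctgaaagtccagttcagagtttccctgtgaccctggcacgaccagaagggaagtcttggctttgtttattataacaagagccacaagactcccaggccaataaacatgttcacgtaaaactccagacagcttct
Adcy9, chr16:4420449-4420748, minus strand: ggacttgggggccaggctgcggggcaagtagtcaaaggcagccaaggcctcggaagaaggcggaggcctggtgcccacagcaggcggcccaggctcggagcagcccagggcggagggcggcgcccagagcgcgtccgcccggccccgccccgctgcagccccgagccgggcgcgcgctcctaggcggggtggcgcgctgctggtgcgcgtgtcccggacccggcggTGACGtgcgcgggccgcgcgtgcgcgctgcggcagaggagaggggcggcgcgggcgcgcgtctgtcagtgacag
Pde4d, chr13:108653927-108654226, plus strand: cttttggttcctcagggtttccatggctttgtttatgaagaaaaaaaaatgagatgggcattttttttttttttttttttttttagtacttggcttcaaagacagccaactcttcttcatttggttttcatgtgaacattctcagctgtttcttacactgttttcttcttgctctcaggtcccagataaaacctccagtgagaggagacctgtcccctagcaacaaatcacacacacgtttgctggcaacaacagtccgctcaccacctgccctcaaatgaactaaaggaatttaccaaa
The core match begins 34 bases before the first of these Pde4b starts and 24 bases before the Adcy9 start. It was also found 28 bases before a start of Adcy7. Of 32851 RefSeq mouse promoters of the same length 20.8% hold it on either strand, as do 3 of the 14 promoters of these genes. The full element, TGACGTCA, is in 1.79% of all promoters and in 0 of the 14. The NF-kappaB consensus is in 4.51% of all promoters and in 1 of the 14, the second Pde4b start shown, 128 bases before it. The 4 Pde4b starts belong to different transcripts, and gene-level counts do not tell which was used. A match describes letters in the window and shows no binding.

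Levels are counts per M counts of a library after TMM scaling (CPM, M standing for mega), where TMM corrects library totals for differences in composition. Totals ran from 58.5 to 318.5 M counts per animal in the sex experiment and from 15.9 to 168.4 M per library in the LPS experiment, with a median of 24.7 M there. P2ry12, the targeted gene, was at 2748 to 5689 unscaled CPM in the 8 WT and at 304.9 to 528.8 in the 10 KO animals of the sex experiment. In the LPS experiment 4 WT libraries, those of library number 2, go against their treatment labels by P2ry12 and by the LPS-induced gene Saa3. Outside them, P2ry12 was at 3810 to 5728 unscaled CPM in WT ns and 422.5 to 716.9 in WT LPS. KO ns were at 615.0 to 910.2, overlapping WT LPS, and KO LPS at 85.4 to 140.4. Saa3 was at 1.66 to 69.7 in WT ns and 1454 to 6558 in WT LPS. Of the 4, WT ns 1 and WT ns 5 had P2ry12 at 486.3 and 963.7 and Saa3 at 1801 and 2589. WT LPS 1 and WT LPS 6 had P2ry12 at 4707 and 9759 and Saa3 at 1.68 and 2.58. These 4 libraries are shown apart and entered only the alternative fit with all libraries by label. WT LPS 8 and WT LPS 9 were nearly as alike as 2 samplings of one library and were summed into 1 sample, leaving 6 WT ns, 6 WT LPS, 8 KO ns and 8 KO LPS samples. A further property divides the LPS libraries. In 6 of 33 the level of genes fell with the GC content of their transcripts (Spearman's rho over genes -0.69 to -0.42, against 0.063 to 0.637 in the other 27). Mitochondrial genes took 2.69% to 8.55% of their counts, against 0.787% to 1.81%. These are called GC-shifted libraries here. The tests hold 4 of them, WT LPS 7, KO ns 5, KO ns 6 and KO LPS 5, and results are given with and without these 4. All 6 belong to the second of 2 library sets given by the numbering of the library names, each of which holds all 4 groups. Within that set the shift followed the library number. WT ns 5, WT LPS 6, KO ns 5 and KO LPS 5, all of its libraries of number 2, were shifted. WT LPS 7 and KO ns 6 are of number 3.

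As markers of the labelled cell type, 9 microglial genes summed to 22872 to 51461 CPM in the ns and 18308 to 27195 CPM in the LPS samples. The 8 neuronal markers summed to 2.81 to 15.2 CPM in ns and 3.75 to 22.8 CPM in LPS samples. Sums of 5 B cell markers, carried by Ighm, were 351.4 to 528.6 CPM in ns and 85.1 to 221.0 CPM in LPS samples, and 5 endothelial and pericyte markers went from 47.7 to 96.8 down to 16.7 to 63.3 CPM. Sums of 5 oligodendrocyte markers (75.1 to 122.8 against 31.5 to 88.2 CPM) and of 6 border-associated macrophage markers (227.7 to 917.2 against 149.0 to 525.6 CPM) also ran lower with LPS. Other sums had a higher median with LPS. Those of 6 neutrophil markers were 213.2 to 9816 CPM in ns (median 862.0) and 770.4 to 11974 in LPS samples (median 1775). Those of 5 monocyte markers were 126.0 to 1905 CPM in ns (median 317.9) and 283.6 to 2653 in LPS samples (median 429.8). All listed markers of these types were found, and 0 were at 0 in all libraries of a group. In the sex experiment the neutrophil sums ran from 501.7 to 30806 CPM. The 8 microglial markers found there summed to 23196 to 37797 CPM. The part of these other cells in the changes below was not tested, and in bulk RNA fewer cells of a type and less RNA per cell cannot be told apart.

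Per kilobase of annotated transcript in the 6 WT ns samples, Pde3b (79.6 ± 11.6 CPM per kb, SD) and Adcy7 (70.7 ± 2.6) were the most abundant of the 10, and their ranges overlapped. Creb1 (13.5 ± 1.52), Pde4b (8.85 ± 0.867), Adcy9 (5.96 ± 0.804) and Adcy3 (2.64 ± 0.324) followed, each separate from the next within this order down to Adcy3. Adcy3, Prkar2b (1.85 ± 1.85), Crem (1.79 ± 0.321), Pde4d (1.68 ± 0.270) and Adcy8 (1.56 ± 0.261) formed the low end, where each range overlapped that of its neighbour.

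With LPS, Adcy8 fell to near 0 and Pde4b rose 3.50-fold in WT and 2.79-fold in KO (ratios of group means), while Pde3b fell 1.93-fold and 1.94-fold and Pde4d 1.92-fold and 2.04-fold. In WT, 5 of the 10 genes were called (adjusted p under 0.05, edgeR's quasi-likelihood test with Benjamini-Hochberg adjustment over all genes), 1 higher and 4 lower, where 30.7% of the 16088 genes tested were called. In KO, 4 were called, 1 higher and 3 lower, against 28.5% of all genes. Without the GC-shifted libraries 9 were called in WT and 8 in KO, against 54.1% and 54.7% of all genes. The median log2 fold change of the 10 was -0.80 in WT and -0.58 in KO, beside 0.03 and 0.01 for all genes tested. The library sets were also fitted by themselves. In set 1 Adcy8 was at -7.17 in WT and -6.68 in KO, Pde4b at 1.44 and 1.30, Pde3b at -0.87 and -0.84 and Pde4d at -0.93 and -1.0. In set 2 they were at -6.83 and -6.50, 2.13 and 1.73, -0.98 and -0.99, and -0.89 and -0.97. Within set 2, which holds the GC-shifted libraries, the adjusted p of Pde3b (0.136 in WT, 0.0744 in KO) and Pde4d (0.305 and 0.224) missed the threshold.

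**Figure D1:**
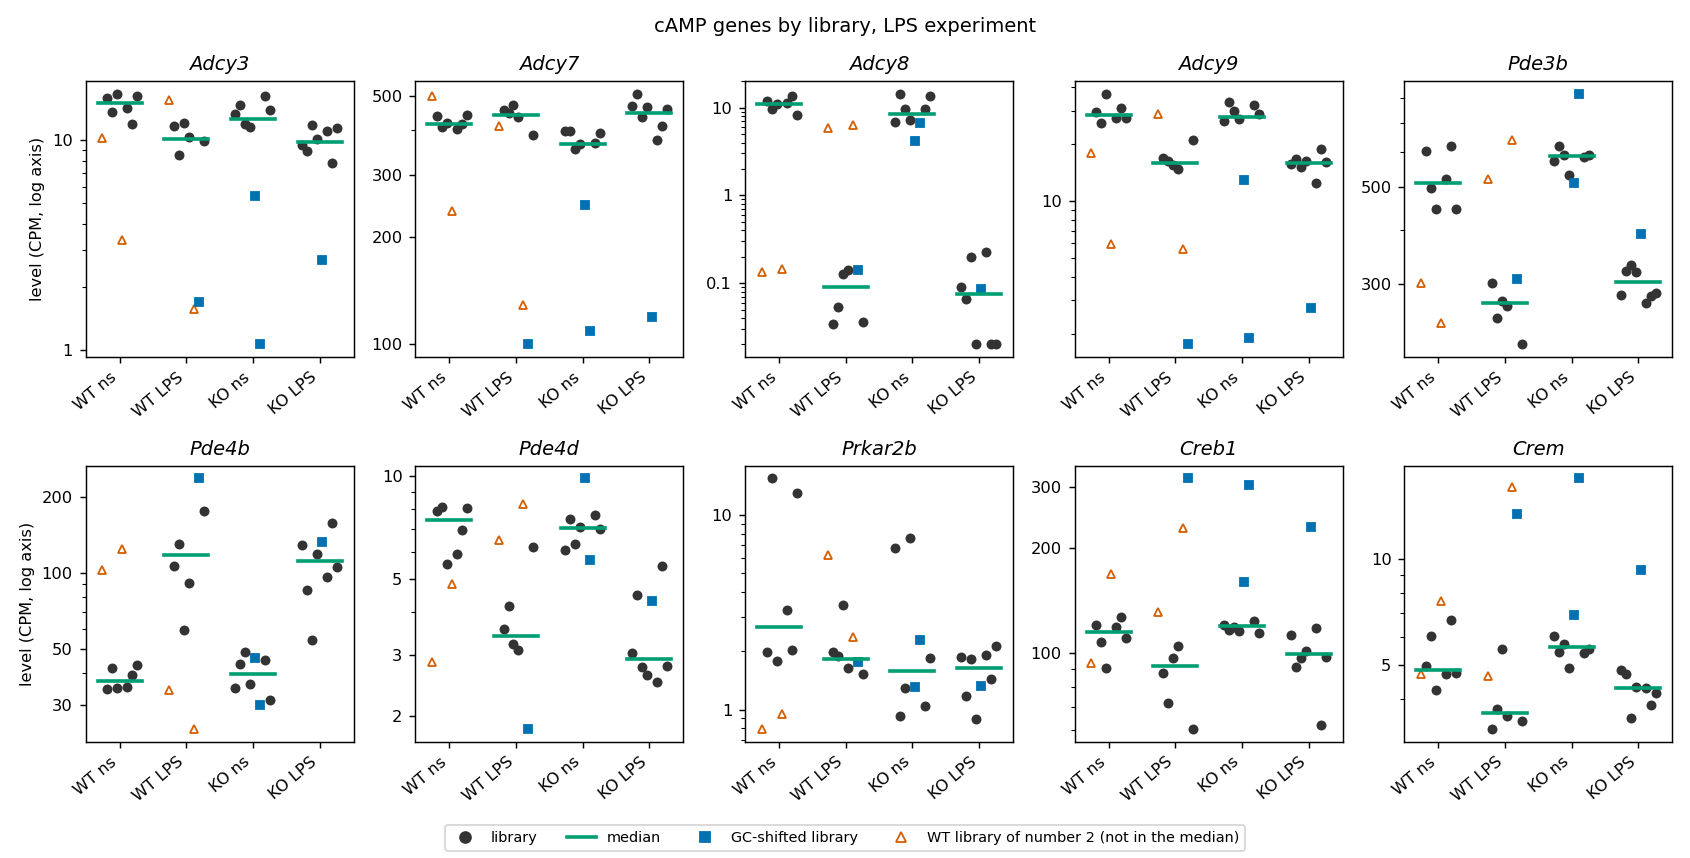
Level of each gene (CPM, log axis) in every library of the 4 LPS-experiment groups, with the median of the samples tested as a bar, GC-shifted libraries as squares and the WT libraries of number 2 as open triangles. Adcy8 libraries at 0 counts, 3 in KO LPS, are drawn at the foot of the panel. Adcy8, Pde3b and Pde4b show no overlap between ns and LPS samples outside the triangles.

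Adcy8 encodes a cyclase stimulated by calcium and calmodulin, best known from neurons (chr15:64570884-64794145, minus strand, GRCm39). Its level in WT ns was 8.18, 11.1 and 13.5 CPM (lowest, median and highest of 6), and in WT LPS 0.034, 0.0899 and 0.141. In KO ns it was 4.16, 8.46 and 14.4 CPM (n = 8), and in KO LPS 0, 0.0754 and 0.228. All LPS samples lay below all ns samples, and the 6 WT LPS samples held 12 Adcy8 counts in all against 3134 in WT ns. The ratio of group means was 123-fold in WT and 109-fold in KO. The log2 fold change (± SE) was -7.01 ± 0.54 in WT (adjusted p 5.08e-10) and -6.57 ± 0.45 in KO (adjusted p 2.68e-11), values that at so few counts depend on the prior count of the fit. Without the GC-shifted libraries they were -7.22 and -6.78. Sums of B cell, endothelial and oligodendrocyte markers also ran lower with LPS, as given above, and their part in the fall of Adcy8 was not tested.

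Adcy7 encodes the cyclase isoform best known from blood and immune cells (chr8:88998818-89056593, plus strand). It was at 403.8, 417.8 and 441.0 CPM in WT ns (lowest, median and highest) and at 99.9, 441.4 and 470.3 in WT LPS, where the lowest is GC-shifted WT LPS 7 and the next was at 387.0. In KO ns it was at 108.9, 367.0 and 399.2 and in KO LPS at 119.2, 447.5 and 507.2 CPM. The groups overlapped in both genotypes. It was not called in WT (log2 fold change -0.15 ± 0.28, adjusted p 0.735) or KO (0.34 ± 0.24, adjusted p 0.337). Without the GC-shifted libraries the log2 fold change was 0.25 ± 0.06 in KO (adjusted p 0.00116), a rise, and 0.06 ± 0.07 in WT (adjusted p 0.443).

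Adcy9, a widely expressed cyclase that responds poorly to the drug forskolin (chr16:4102750-4255094, minus strand), was at 25.8, 28.5 and 36.9 CPM in WT ns and 1.76, 15.9 and 21.1 in WT LPS. In KO it was at 1.90, 27.9 and 33.6 CPM in ns and 2.73, 16.0 and 18.9 in LPS. The ranges were separate in WT. In KO they overlapped through the GC-shifted libraries, and without these ns began at 26.5 and LPS ended at 18.9 CPM. It was not called with all samples (log2 fold change -1.03 ± 0.44, adjusted p 0.077, in WT and -0.69 ± 0.38, adjusted p 0.190, in KO). In WT it was called with the replicate block (-1.25, adjusted p 0.0290), by DESeq2 (adjusted p 0.0491) and in set 1 by itself (-0.89, adjusted p 5.32e-05). Without the GC-shifted libraries it fell by 0.80 ± 0.11 in WT (adjusted p 2.29e-06) and by 0.88 ± 0.10 in KO (adjusted p 1.26e-07).

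Adcy3, the cyclase of olfactory and primary cilia (chr12:4183397-4263525, plus strand), was at 12.0, 15.1 and 16.7 CPM in WT ns, 1.69, 10.2 and 12.2 in WT LPS, 1.06, 12.6 and 16.3 in KO ns and 2.69, 9.80 and 11.8 in KO LPS. The groups overlapped in both genotypes, and the lowest value of the last 3 groups is a GC-shifted library. The log2 fold change was -0.70 ± 0.39 in WT (adjusted p 0.179) and -0.21 ± 0.34 in KO (adjusted p 0.704). Without those libraries it fell by 0.48 ± 0.12 in WT (adjusted p 0.00143) and by 0.42 ± 0.11 in KO (adjusted p 0.00203).

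Pde4b, the phosphodiesterase whose transcript is known to rise in LPS-treated macrophages (chr4:101944529-102464459, plus strand), was at 34.4, 37.3 and 42.9 CPM in WT ns and at 59.4, 118.1 and 237.1 in WT LPS. In KO it was at 29.9, 39.8 and 48.4 CPM in ns and at 54.2, 111.7 and 157.9 in LPS. All LPS samples lay above all ns samples in each genotype, and the LPS samples differed among themselves by several fold. The ratio of means was 3.50 in WT and 2.79 in KO, with log2 fold changes of 1.82 ± 0.25 (adjusted p 3.38e-06) and 1.51 ± 0.21 (adjusted p 5.04e-06). The highest WT LPS sample is GC-shifted, and without the GC-shifted libraries the values were 1.58 ± 0.23 and 1.40 ± 0.21.

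Pde3b, a phosphodiesterase inhibited by cGMP and known for insulin action in fat cells (chr7:114014388-114137173, plus strand), was at 444.9, 510.3 and 620.6 CPM in WT ns and 218.6, 271.8 and 308.1 in WT LPS. In KO it was at 511.4, 589.3 and 817.9 CPM in ns and 272.4, 303.4 and 390.8 in LPS. The ranges were separate in both genotypes. Pde3b fell by 0.91 ± 0.16 on the log2 scale in WT (adjusted p 6.92e-05) and by 0.91 ± 0.13 in KO (adjusted p 8.01e-06), and without the GC-shifted libraries by 0.99 ± 0.09 and 0.94 ± 0.08.

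Pde4d, a cAMP-specific phosphodiesterase of the same family as Pde4b (chr13:108790711-110092503, plus strand), was at 5.53, 7.43 and 8.11 CPM in WT ns and 1.83, 3.40 and 6.22 in WT LPS. In KO it was at 5.69, 7.05 and 9.86 CPM in ns and 2.51, 2.92 and 5.48 in LPS. The ranges overlapped in WT through WT LPS 8 and were separate in KO. It fell by 0.90 ± 0.24 in WT (adjusted p 0.00488) and by 0.99 ± 0.21 in KO (adjusted p 0.000539), and without the GC-shifted libraries by 0.77 ± 0.20 and 1.03 ± 0.18. Pde4b and Pde4d thus moved in opposite directions in both genotypes.

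**Figure D2:**
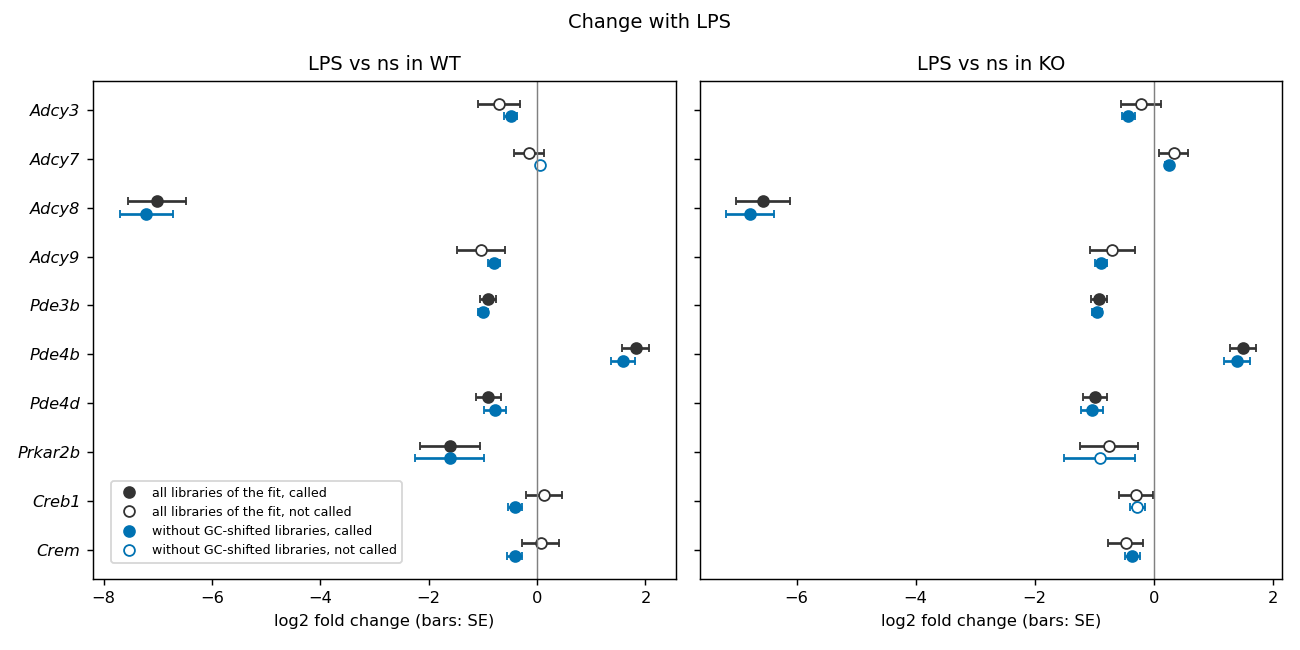
Log2 fold change of LPS against ns in WT (left) and KO (right) with SE bars, fitted with all samples (black) and without the GC-shifted libraries (blue); filled points were called. Adcy8 lies near -7 and Pde4b between 1 and 2 in both fits, while Adcy7, Creb1 and Crem change side in WT.

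Prkar2b encodes the RII-beta regulatory subunit of PKA, known from brain and fat (chr12:32008449-32111647, minus strand). Its 6 WT ns samples were at 1.78, 1.97, 2.03, 3.25, 13.0 and 15.4 CPM, a group in which 2 samples stood far above the others. WT LPS held 1.52, 1.82 and 3.45 CPM (lowest, median, highest), KO ns 0.928, 1.57 and 7.63, and KO LPS 0.893, 1.63 and 2.12. It was called lower with LPS in WT (log2 fold change -1.61 ± 0.56, adjusted p 0.0298), although the ranges overlapped. It was not called in KO (-0.75 ± 0.49, adjusted p 0.284). In WT the call was lost in set 1 (adjusted p 0.280) and set 2 (adjusted p 0.119) by themselves and with the replicate block (-1.11, adjusted p 0.151).

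The 4 ns samples with the highest Prkar2b, WT ns 3 and 8 and KO ns 1 and 4, had summed levels of the 6 neutrophil markers (all found, none at 0 in every library) of 9816, 9076, 3939 and 4479 CPM. The sums ranged from 256.9 to 9816 CPM in WT ns, 1331 to 11974 in WT LPS, 213.2 to 9203 in KO ns and 770.4 to 3998 in KO LPS. In the sex experiment male WT 5 and female WT 2 were first and second of the 18 animals in both Prkar2b (48.3 and 21.5 CPM, others at most 8.26) and neutrophil markers (30806 and 18414 CPM). The GC-shifted KO ns 6 and WT LPS 7 had sums of 9203 and 11974 CPM with Prkar2b at only 2.27 and 1.76. With the mean neutrophil marker level in the model, the change with LPS was -0.87 in WT (adjusted p 0.00987) and -0.56 in KO (adjusted p 0.0570). Monocyte markers were not in that model. In the sex experiment 5 of them summed to 202.0 to 3880 CPM in male WT and 230.9 to 412.9 in male KO. Female WT were at 128.9 to 2146 and female KO at 249.5 to 705.0 CPM. In the LPS experiment the highest monocyte sums were 1905 CPM in WT ns, 2653 in WT LPS, 1276 in KO ns and 711.8 in KO LPS. Prkar2b was not set against these sums sample by sample.

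**Figure D3:**
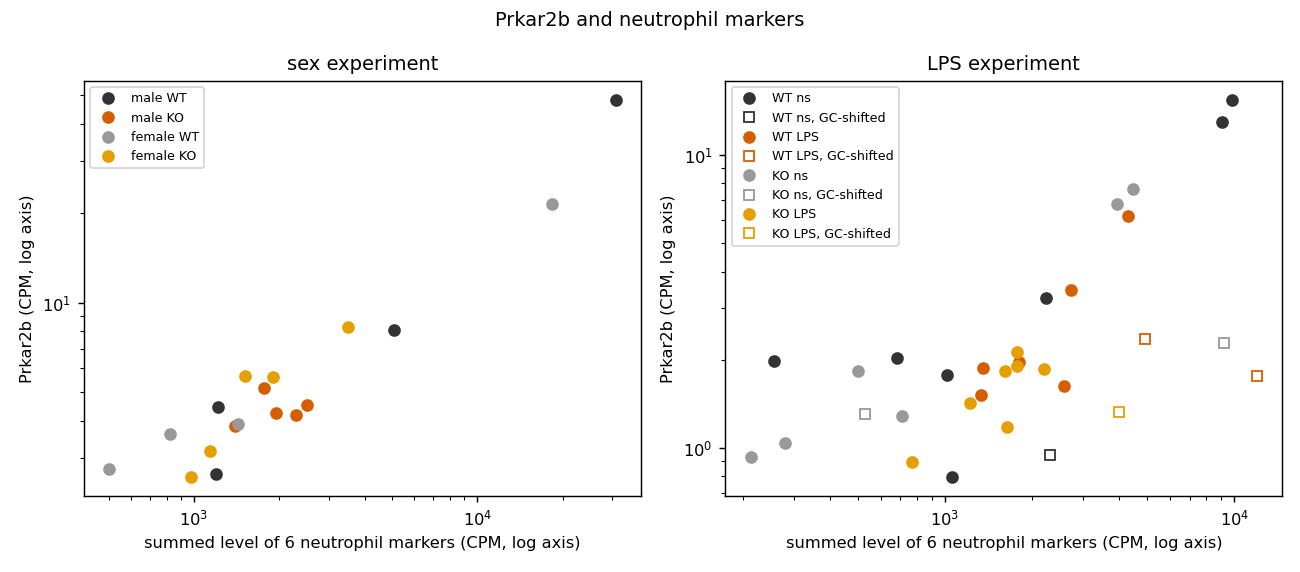
Prkar2b level against the summed level of 6 neutrophil markers (both CPM, log axes) in each animal of the sex experiment (left) and each library of the LPS experiment (right, WT libraries of number 2 included, GC-shifted libraries as open squares). Outside the open squares, the samples with the highest Prkar2b are those with the highest marker sums.

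Creb1 encodes the transcription factor CREB (chr1:64571963-64643707, plus strand). It was at 90.9, 114.7 and 127.0 CPM in WT ns and 60.5, 92.1 and 318.5 in WT LPS, and in KO at 114.2, 119.5 and 304.3 in ns and 62.0, 99.4 and 231.2 in LPS. Crem encodes the cAMP response element modulator, a relative of CREB whose internal promoter makes the repressor ICER. It was at 4.26, 4.85 and 6.73 CPM in WT ns and 3.30, 3.67 and 13.4 in WT LPS, and in KO at 4.91, 5.64 and 16.9 in ns and 3.53, 4.32 and 9.29 in LPS. For both genes the highest value of WT LPS, KO ns and KO LPS is a GC-shifted library, and the groups overlapped. Neither was called with all samples. In WT the direction turned: the log2 fold change of Creb1 was 0.12 ± 0.33 (adjusted p 0.817) with all samples and -0.41 ± 0.13 (adjusted p 0.0137) without the GC-shifted libraries, and that of Crem was 0.07 ± 0.34 (adjusted p 0.903) and -0.41 ± 0.14 (adjusted p 0.0183). In KO without them, Creb1 was at -0.27 ± 0.12 (adjusted p 0.0643) and Crem at -0.36 ± 0.13 (adjusted p 0.0233), with its LPS libraries (at most 4.86 CPM) below its ns libraries (at least 4.91). Gene-level counts do not separate ICER from other Crem transcripts.

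The 4 GC-shifted libraries that entered the tests were set against the samples of their group that are not GC-shifted. The libraries were chosen by the relation of level to GC content, so these values are a description. Adcy3, Adcy7 and Adcy9, with transcripts of 56.7%, 52.4% and 57.0% GC, lay below all of these samples in all 4, at 0.0648 to 0.647 times their median. Creb1 and Crem, at 39.6% and 43.2% GC, lay above all of them in all 4, at 1.26 to 3.73 times the median. Prkar2b (44.1%) lay within their range in all 4, and Pde3b (44.0%), Pde4b (45.9%), Pde4d (49.8%) and Adcy8 (50.8%) differed in position from library to library. The median over all genes with a value was 47.2% GC.

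**Figure D4:**
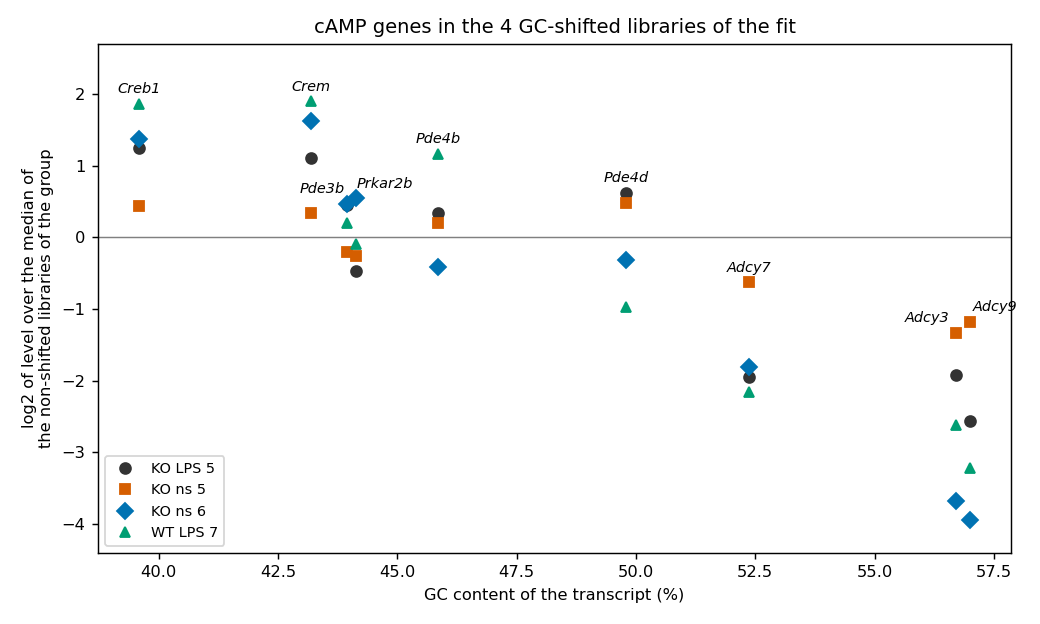
Level in each of the 4 GC-shifted libraries of the fit relative to the median of the samples of its group that are not GC-shifted (log2) against the GC content of the transcript (%), 1 column of points per gene. Adcy8 is not drawn because its LPS counts are near 0. Creb1 and Crem lie above 0, and Adcy7, Adcy3 and Adcy9 below it, in all 4.

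The WT libraries of number 2 were read apart. Those labelled WT ns 1 and WT ns 5 had Adcy8 at 0.132 and 0.146 CPM, from 3 and 4 counts, and Pde4b at 102.0 and 124.4 CPM, above the highest other WT ns sample (42.9). Those labelled WT LPS 1 and WT LPS 6 had Adcy8 at 5.87 and 6.41 CPM and Pde4b at 34.3 and 24.01, below the lowest other WT LPS sample (59.4). Pde3b was at 302.7 and 244.3 CPM in the first pair and 521.6 and 641.0 in the second. For these 3 genes each library lay on the side of the opposite label, but not always within the range of that group. In the 2 labelled WT LPS, Adcy8 and Pde4b lay below the lowest other WT ns sample (8.18 and 34.4 CPM). Pde3b in WT LPS 6 lay above the highest (620.6 CPM). With all libraries entered by label, 0 of the 10 genes were called with LPS in WT, where 0% of 15857 genes were called, and 4 in KO, against 22.3%. The log2 fold changes in WT were then -2.39 for Adcy8 (adjusted p 0.142) and 0.89 for Pde4b (adjusted p 0.149).

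Between KO and WT in the LPS experiment 0 of the 10 genes were called by edgeR or DESeq2, at ns (0.0932% of all genes called) or at LPS (0.0746%). Unadjusted p-values under 0.05 were found for 1, Prkar2b at ns (p 0.0292), against 1480 of the 16088 genes tested. At LPS they were found for 0, against 1019 of all genes. At ns the log2 fold changes lay between -1.17 ± 0.51 (Prkar2b) and 0.42 ± 0.32 (Crem), and at LPS between -0.31 ± 0.52 (Prkar2b) and 0.22 ± 0.14 (Pde3b). Without the GC-shifted libraries 0 were called as well, against 0.348% and 0.280% of all genes, and with all libraries by label, against 0.114% and 0.126%. In the first of these 1 gene had an unadjusted p under 0.05 at ns (1988 of 16071 genes tested) and 0 at LPS (1860). In the second these were 0 (1360 of 15857 genes tested) and 1 (1170). For Adcy7, KO ns reached 399.2 CPM and WT ns began at 403.8. How many of all genes show such a gap was not counted. Its log2 fold change was -0.39 ± 0.26 (adjusted p 0.603), and -0.17 ± 0.06 (adjusted p 0.283) without the GC-shifted libraries.

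The difference of the LPS change between KO and WT was tested by an interaction term and called 0 of the 10 genes by edgeR, which called 0% of all genes. Of the 10, 0 had an unadjusted p under 0.05, against 708 of the 16088 genes tested. DESeq2 called 0 of the 10 and 3 genes in all. It was also 0 without the GC-shifted libraries (0.00622% of all genes) and with all libraries by label (0%). In each, 1 of the 10 had an unadjusted p under 0.05, against 773 of 16071 and 1698 of 15857 genes tested. The term was 0.44 ± 0.70 for Adcy8, -0.32 ± 0.32 for Pde4b, -0.01 ± 0.20 for Pde3b and -0.09 ± 0.31 for Pde4d. Its SE is narrow for Pde3b and wide for Adcy8.

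The sex experiment compared KO with WT in each sex. By edgeR 0 of the 10 genes were called in males (0.00946% of 31709 genes called), in females (0.164%), averaged over the sexes (0.432%) or in the sex-by-genotype interaction (0%), and DESeq2 called 0 in each. Before adjustment, 2 genes, Adcy8 and Prkar2b, had a p under 0.05 in males (2171 of 31709 genes tested) and in the average (2860). In females (1655 of all genes) and in the interaction (879) it was 0 of the 10.

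Adcy8 was at 15.9, 19.7, 20.1 and 30.2 CPM in male WT and 11.2, 13.7, 14.7, 17.01 and 18.2 in male KO. Female WT were at 18.1, 19.7, 23.6 and 29.9 CPM and female KO at 15.2, 16.4, 18.0, 19.9 and 20.4. The KO animals sat in the lower part of the range and overlapped WT in both sexes. Averaged over the sexes the log2 fold change was -0.43 ± 0.13 (p 0.00268, adjusted p 0.216). With the neutrophil marker level in the model it was -0.48 (adjusted p 0.0206), the only setting that called it. DESeq2 gave an adjusted p of 0.0916, and with single animals left out the adjusted p ran from 0.0761 to 0.387.

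Prkar2b was at 2.64, 4.46, 8.06 and 48.3 CPM in male WT, 3.84, 4.18, 4.26, 4.53 and 5.14 in male KO, 2.76, 3.62, 3.89 and 21.5 in female WT and 2.58, 3.17, 5.63, 5.64 and 8.26 in female KO. A single WT animal of each sex stood above all others. The log2 fold change in males was -1.86 ± 0.78 (adjusted p 0.719), -0.21 without male WT 5 and -0.31 with the neutrophil markers in the model. In females Prkar2b was at -0.65 ± 0.78 (adjusted p 1), and at 0.57 without female WT 2. Over all single animals left out, the values ran from -2.21 to -0.21 in males and from -0.94 to 0.57 in females. The marker sums ran from 1191 to 30806 CPM in male WT, 1395 to 2501 in male KO, 501.7 to 18414 in female WT and 971.8 to 3498 in female KO.

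**Figure D5:**
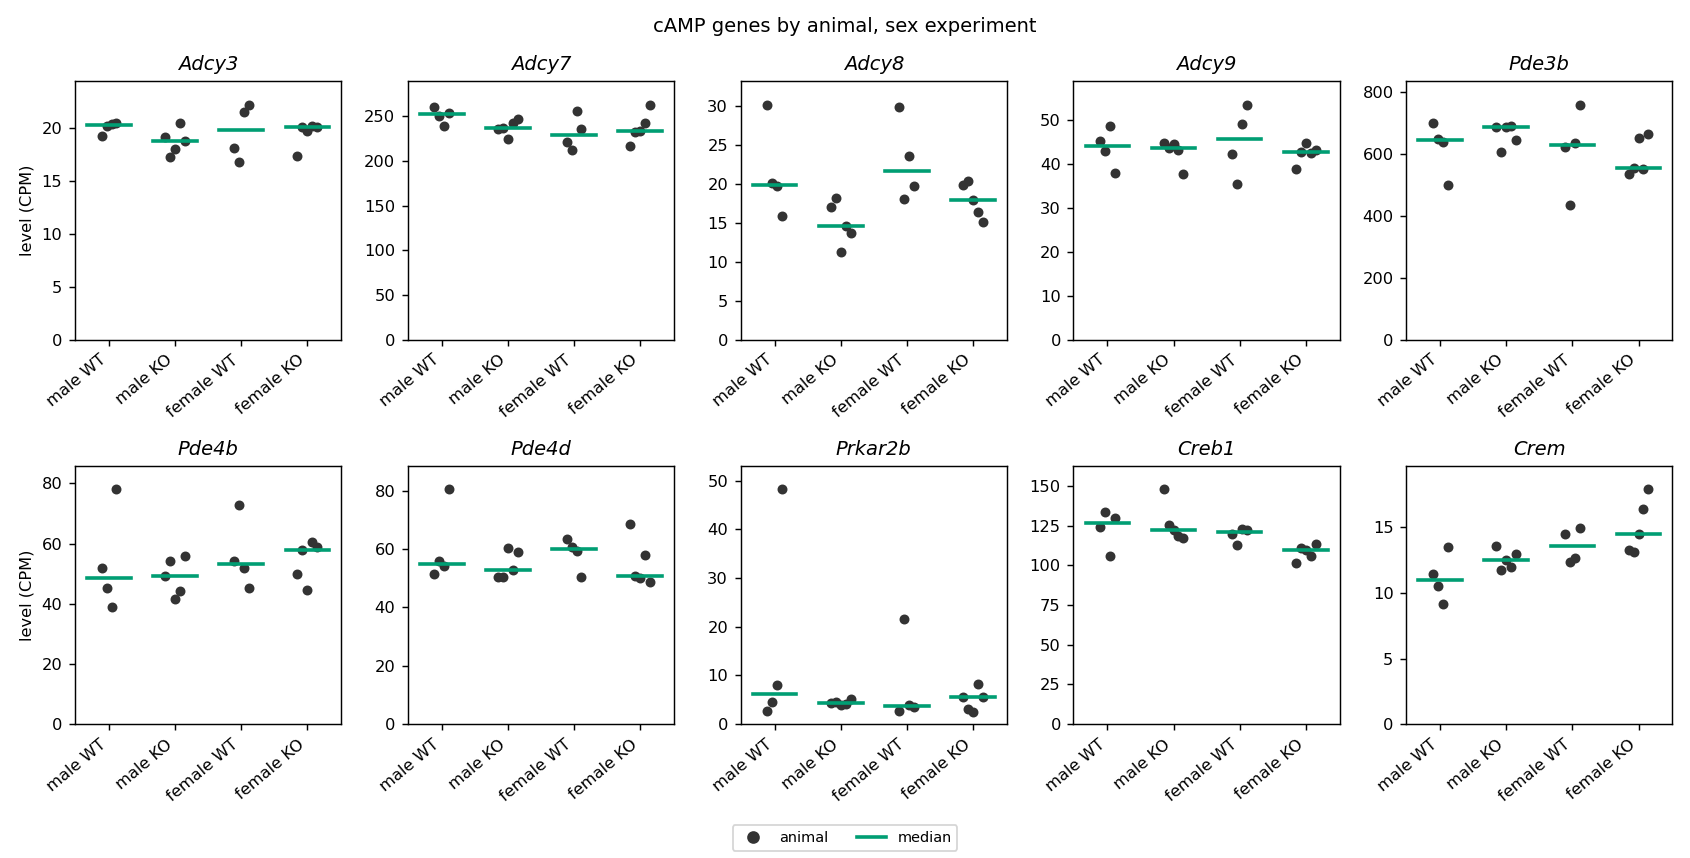
Level of each gene (CPM, axis from 0) in every animal of the 4 sex-experiment groups, with group medians as bars. WT and KO animals overlap in every panel, and Prkar2b is high in 1 male WT and 1 female WT animal.

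The other 8 genes differed little between genotypes. Their averaged log2 fold changes ran from -0.12 ± 0.09 (Pde4d) to 0.16 ± 0.08 (Crem). Crem was at 9.14, 10.5, 11.5 and 13.5 CPM in male WT and 11.7, 12.0, 12.5, 13.0 and 13.6 in male KO, and at 12.4, 12.7, 14.5 and 14.9 in female WT and 13.2, 13.3, 14.5, 16.4 and 17.9 in female KO. KO animals tended to the upper part of the range, but the groups overlapped. Adcy7 lay between 212.6 and 263.0 CPM and Creb1 between 101.4 and 148.2 CPM over all 18 animals.

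The 2 tables were counted differently, and levels set across them are not tested. In the sex table the length given for each gene is its whole span, so reads of introns may be included. Whether reads of introns or of genes lying inside were counted is not stated. Pde4d, with a span of 1302 kb, was at 59.5 ± 9.62 CPM (SD, n = 8) in WT animals there. In WT ns of the LPS table it was at 7.09 ± 1.14 (n = 6), a ratio of 8.39. Pde3b and Creb1 had ratios of 1.18 and 1.079. The ratios of the remaining genes ran from 0.573 (Adcy7, span 57.8 kb) to 2.36 (Crem, span 74.5 kb). Pde4b, with a span of 520 kb, had a ratio of 1.44, so the ratios did not follow span from gene to gene. Why they differed was not tested. Cenpo, on the opposite strand, overlaps Adcy3 and holds counts equal to 161.6% of the Adcy3 count. Gm6225 overlaps Crem with 34.2% and Brd7 Adcy7 with 27.96%. These percentages take all counts of the neighbour, most of which may lie outside the shared stretch. Cenpo begins at 4243548, before Adcy3 ends at 4263525. Gm6225 begins at 3336416 and Crem ends at 3337688, and Brd7 begins at 89056522 and Adcy7 ends at 89056593. The counting is not stated to use strand, so reads of such neighbours in the shared stretch cannot be told apart in that table.

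Around the 10 genes, 10 lists of the cAMP pathway with 105 genes were read, of which 75 passed the filter of the LPS experiment. With LPS 8 of the 75 were called higher and 19 lower in WT, and 6 higher and 15 lower in KO, where 30.7% and 28.5% of all genes were called. Without the GC-shifted libraries these became 15 and 29 in WT and 11 and 27 in KO, where 54.1% and 54.7% of all genes were called. The shares called lie near those of all genes, and the counts by list below are read against the same shares. Between KO and WT at ns, at LPS and in the sex experiment (100 tested there) 0 were called.

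Among 9 other cAMP-hydrolysing phosphodiesterases tested, 3 fell in WT and 1 in KO, and 0 rose. With the GC-shifted libraries left out, 5 fell and 2 rose in WT, and 3 fell and 1 rose, Pde8a (0.52 ± 0.15), in KO. Pde8b, a high-affinity cAMP phosphodiesterase, went from 39.1 to 15.9 CPM in WT (group means, log2 fold change -1.26 ± 0.15, adjusted p 3.91e-07) and from 49.4 to 22.4 in KO (-1.10 ± 0.13, adjusted p 2.38e-07). Pde10a (-1.70 ± 0.39, from 2.07 to 0.612 CPM) and Pde7a (-0.66 ± 0.15, from 23.97 to 14.7 CPM) fell in WT. The median of the list was -0.66 in WT and -0.06 in KO, and -0.67 and -0.21 without the GC-shifted libraries. Of 3 other adenylyl cyclases and 3 cGMP-specific phosphodiesterases tested, edgeR called 0 in either genotype with all samples, and without the GC-shifted libraries 1, Adcy4, which rose in KO (0.85 ± 0.34, adjusted p 0.0384).

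Of the PKA list, 2 of 8 rose and 2 fell in WT, and 1 rose and 3 fell in KO. Leaving out the GC-shifted libraries, 5 fell in each genotype, and 2 rose in WT and 1 in KO. Prkacb, a catalytic subunit, fell from 112.3 to 72.9 CPM in WT (-0.58 ± 0.13) and Prkar1b, a regulatory subunit, by 0.69 ± 0.19. Pkib, a PKA inhibitor, rose in WT (0.93 ± 0.27, adjusted p 0.0109), and Prkar2a, the relative of Prkar2b, rose in both (0.48 in WT, adjusted p 0.0367, and 0.63 ± 0.15 in KO). Pkig, a PKA inhibitor, was the third gene that fell in KO. Of 10 A-kinase anchoring proteins, which tether PKA within the cell, 1 rose and 4 fell in WT and 1 rose and 3 fell in KO, led by Akap5 (-2.17 ± 0.30 in WT, -1.28 ± 0.25 in KO) and Akap12 (-1.31 ± 0.31 and -1.83 ± 0.27). In the fit without GC-shifted libraries 2 rose and 6 fell in WT, and 1 rose and 3 fell in KO. Akap7 fell by 0.90 ± 0.18 and 0.84 ± 0.15, Akap3 fell in WT and Akap1 rose in both. Pkig, Akap1, Akap3 and the WT value of Prkar2a are outside the naming rule and were named after their values were seen, as were Junb and the WT call of Dusp1 below. Other cAMP-binding effectors fell in 3 of 4 in each genotype. They were the channel genes Hcn2 (-1.31 ± 0.47 in WT, -1.17 ± 0.41 in KO) and Hcn3 (-1.49 ± 0.45, -1.65 ± 0.39). The third was the exchange factor gene Rapgef4, or EPAC2 (-0.89 ± 0.34, -1.34 ± 0.28). All 3 were low, with group means of at most 2.34 CPM in the LPS experiment.

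On the input side, Ptger4, a Gs-coupled prostaglandin E2 receptor, rose from 5.75 to 27.4 CPM in WT (2.29 ± 0.32, adjusted p 4.37e-06) and from 3.68 to 20.4 in KO (2.49 ± 0.28, adjusted p 1.33e-07). Vipr1, a receptor of vasoactive intestinal peptide, fell by 2.03 ± 0.46 in WT and 1.27 ± 0.39 in KO. Of the 9 Gs-coupled receptors tested, 1 rose in each genotype and 3 fell in WT and 2 in KO (4 in KO without the GC-shifted libraries), with Hrh2 (histamine H2 receptor) falling in WT (-0.80 ± 0.26). Gnas, the Gs alpha subunit, fell by 0.78 ± 0.26 in WT, and Gnaz fell in both genotypes. Of 7 alpha subunits, 2 fell in WT and 1 in KO (2 in each without the GC-shifted libraries). Gnaz was low, with group means of at most 0.680 CPM in the LPS experiment.

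On the output side, 3 of 10 textbook CREB target genes rose and 1 fell in each genotype, with a list median of 0.67 in WT and 0.78 in KO. When the GC-shifted libraries were left out, 6 rose and 1 fell in WT, and 4 rose and 3 fell in KO, with medians of 0.76 and 0.57. Sik1, a kinase of the CREB feedback loop, rose by 2.13 ± 0.61 in WT and 2.87 ± 0.55 in KO. Dusp1, a phosphatase of MAP kinases, rose in both (1.53 in WT, 1.49 ± 0.49 in KO), Id1, an inhibitor of differentiation factors, rose in WT (1.57 ± 0.49) and Junb in KO. Fosb (WT, -3.01 ± 0.66) and Nr4a3 (KO, -1.39 ± 0.43), both immediate-early genes, fell. Both were low, Fosb going from 2.39 to 0.298 CPM in WT and Nr4a3 from 0.547 to 0.205 in KO (group means). Among 12 CREB relatives and coactivators Crebl2 fell in both genotypes (-0.89 ± 0.19 and -1.01 ± 0.17), and Creb3 rose in WT (0.86 ± 0.29, and 0.48 ± 0.10 without the GC-shifted libraries). Of these 12, 1 rose and 1 fell in WT and 1 fell in KO, and without the GC-shifted libraries 2 rose and 4 fell in each genotype. These list members respond to other signals too, and no list was tested as a set.

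Over the 28 samples tested in the LPS experiment the genes whose log2 CPM was most like that of Adcy8 were Gprasp2 (Pearson's r 0.970), Upk1b (0.969) and Khdrbs3 (0.968). For Pde4b they were Birc3 (0.974), Slc31a2 (0.960) and Ripk1 (0.960), and for Crem Mff (0.966), Stag2 (0.965) and Nck1 (0.964). All samples share the group differences with LPS, and for Crem the highest values are the GC-shifted libraries, so these coefficients describe the 28 samples and are given with no test.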

How the data were processed

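RNA was sequenced from CD11b-positive brain cells, and the authors deposited 1 table of raw counts per gene for each experiment. Per the file headers the sex table gives gene coordinates, and the length equals the whole gene span in 100% of genes. The submitters' processing notes name STAR 2.6.1, featureCounts and GRCm39, with no role or order. Of 57 libraries in the labels, 6 repeat libraries have no column and were not analysed here; 0 columns were left unmapped. Low counts were even in 77.1% to 86.1% of cases in the sex table and 41.5% to 46.5% in the other, so the tables were fitted apart.

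In edgeR 4.0.16 (R 4.3.3), 31709 and 16088 genes passed filterByExpr. TMM gave the library scaling, and contrasts were tested by edgeR's quasi-likelihood F test with a mean per group and, for the LPS experiment, library set as covariate. P-values were adjusted by Benjamini-Hochberg over all genes of a contrast and called under 0.05. The spread between samples (biological coefficient of variation) was 35.3% and 40.1%. The code was tested on simulated counts, drawn with a smaller spread than that of the LPS samples and with no GC shift. Error rates at the spread of the data were not tested. The chi-square statistic over its degrees of freedom was 1.86 for WT LPS 8 and 9 and 8.32 or more for any other pair, so these 2 were summed. GC content came from GENCODE transcripts, with a value for 98.7% of the genes of the check.

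The genes, lists and settings were chosen with earlier results of these data known. Named were all 10 genes and, of each list and comparison, at most 3 called members with the largest absolute log2 fold change; for likeness, the 3 highest Pearson correlations of log2 CPM for Adcy8, Pde4b and Crem. Alternatives were DESeq2 1.42.0, RLE scaling, no filter, halved counts in the sex table (low counts there are mostly even), a replicate block, each library set by itself, no set covariate, no library of number 2, all libraries by label, the summed pair kept apart, and single samples left out. The fits without GC-shifted libraries (Spearman's rho under 0) and with neutrophil markers as covariate were chosen after seeing the data. A called list member is not reported here by name.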

Additional observations from a re-analysis of the deposited data

Results flagged for a closer look

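Each gene was looked at for a sample far from the rest of its group, in 80 combinations of gene and group, and 20 values met the limit, which chance meets in about 1 of 20 combinations. In the GC-shifted KO LPS 5, Adcy3 (2.69 CPM), Adcy7 (119.2) and Adcy9 (2.73) were far below and Creb1 (231.2) and Crem (9.29) far above the other KO LPS libraries. In the GC-shifted WT LPS 7, Adcy3 (1.69), Adcy7 (99.9) and Adcy9 (1.76) were far below and Creb1 (318.5) and Crem (13.4) far above the other WT LPS samples. In the GC-shifted KO ns 6, Pde3b (817.9), Creb1 (304.3) and Crem (16.9) were far above the other KO ns libraries. Prkar2b stood apart in WT LPS 4 (3.45 CPM), female WT 2 (21.5) and male WT 5 (48.3), each the highest of its group, and Pde4d was also highest in male WT 5 (80.5). Adcy3 was lowest in female KO 1 (17.3), Adcy9 lowest in male KO 5 (37.8) and Creb1 highest in male KO 1 (148.2).

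Among the WT libraries of number 2, which entered only the fit by label, the library labelled WT ns 1 exceeded the 6 WT ns samples not of number 2 in Adcy7 (499.4 CPM) and Pde4b (102.0). The library labelled WT ns 5 exceeded the same 6 in Pde4b (124.4), Creb1 (169.1) and Crem (7.57).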

How the results depend on the processing

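Of 1610 values of the 10 genes under alternatives, 1583 kept their side of the threshold, 12 lost and 13 gained a call and 2 turned sign into a call. The latter are Creb1 (-0.41) and Crem (-0.41) with LPS in WT without the GC-shifted libraries. A further 90 uncalled values changed sign. For LPS in WT, 5 of the 10 genes and 4934 genes in all were called. With all libraries by label these were 0 and 0, in set 2 by itself 2 and 547, and without the GC-shifted libraries 9 and 8696. For LPS in KO (4 and 4587), set 1 gave 7219 genes in all, set 2 gave 2 and 721, and the GC-shifted libraries' removal 8 and 8783. The fits by set and without GC-shifted libraries hold fewer samples. The cause of the differences was not tested.

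Between KO and WT at ns (15 genes called) DESeq2 called 50, set 2 gave 1 and the fit without GC-shifted libraries 56. At LPS (12 called) the counts were 57 with DESeq2, 20 by label, 35 in set 1, 0 in set 2, 45 without GC-shifted libraries and 33 with the replicate block. The genotype-by-LPS interaction (0) gave 3 with DESeq2 and 1 without GC-shifted libraries. In the sex experiment the average over the sexes (137) gave 358 with DESeq2, 319 with neutrophil markers in the model, where Adcy8 was the 1 gene of the 10 called, and 84 with the replicate block. Females (52) gave 210, 201 and 5 in that order, and 96 with no filter on low counts. Males (3) gave 27 with DESeq2 and 6 with neutrophil markers.

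Leaving out single animals moved the calls from 54 to 279 in the average (54 without male WT 4, 279 without male WT 5), from 5 to 132 in females, from 3 to 4 in males and left the sex interaction at 0, with 0 of the 10 genes called throughout. Without WT ns 4, the deepest library, the counts were 4710 for LPS in WT, 4551 for LPS in KO, 11 at ns, 13 at LPS and 0 for the interaction, with 5 and 4 of the 10 genes called with LPS in WT and KO.

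Same-numbered samples deviated together only in part. In the sex experiment the mean correlation was 0.126 over 8 pairs (lowest -0.054), against -0.030 over 32 differently numbered pairs. In the LPS experiment it was 0.200 over 35 pairs (lowest -0.23), against 0.098 over 111 differently numbered pairs. The highest same-numbered value there, 0.788, was between the GC-shifted KO ns 5 and KO LPS 5. The numbers are not shown to pair the samples. With the replicate block 5 genes of the 10 were called with LPS in WT, Adcy9 entering and Prkar2b leaving, and 4 in KO, of 5758 and 5574 in all. Adcy8 counts of 1 to 3 per WT LPS sample limit its fold change.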
